A study of Mus musculus with 6 samples.

Results

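The samples described here are 3 RNA-seq libraries of P19 cells that received a negative control (NC) siRNA and were then differentiated with all-trans retinoic acid for 5 days. They are 3 of the 6 samples of the series, chosen by their labels as every library of the NC siRNA group, and the labels call them biological replicates and number them 1, 2 and 3. P19 cells are a line of mouse embryonal carcinoma, the stem cells of a teratocarcinoma, and the siRNA was delivered with Lipofectamine 2000. The transfection protocol also lists a Gapdh siRNA, which was not analysed here, and an siRNA against Baf45d, with which no comparison is made. The sources used here give neither the dose of retinoic acid nor the form of the culture during differentiation. The libraries are bulk libraries, so every level is an average over all cells of a sample.

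P19 cells resemble the undifferentiated cells of the early embryo and can form neural, mesodermal or endodermal derivatives. Retinoic acid binds nuclear receptors (RAR with RXR) that sit on DNA repeats and switch on genes such as Cyp26a1, Rarb and the anterior Hox genes. Hox genes lie in 4 clusters, named a to d, and their order along a cluster follows their order of expression along the body axis, with low paralogous group numbers anterior and high ones posterior.

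The 3 libraries held 17767104, 21224822 and 17819591 counts in replicates 1, 2 and 3. Levels are given as the deposited FPKM (counts per length of the gene and depth of the library), since only a per-length unit can be compared between genes. A gene counted as detected at 1 FPKM or more in each of the 3 libraries. With 1 group described, no test was made, and each level carries its standard deviation (SD) over 3 libraries. Replicate 3 stood apart from the other two. Over genes with at least 20 counts, the chi-square per degree of freedom against counting noise was 8.43 for replicates 1 and 3, 8.91 for replicates 2 and 3, and 3.31 for replicates 1 and 2. Every pair differed by more than counting noise, so no library is a copy of another. Values in each library are therefore given for the genes the description turns on.

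The 6 marker genes of the cells showed neural, neuronal and mesenchymal RNA side by side with little of the pluripotency factor. Tubb3 (ENSMUSG00000062380), the tubulin of young neurons, had 120.0, 107 and 107 FPKM in replicates 1, 2 and 3. Sox2 (ENSMUSG00000074637), a transcription factor of neural progenitors and of pluripotent cells, had 53.6, 51.1 and 50.0 FPKM. Nes (ENSMUSG00000004891), an intermediate filament of neural progenitors, had 32.1, 29.9 and 43.4 FPKM. Tubb3 and Sox2 were even over the libraries, whereas Nes was highest in replicate 3. Col3a1 (ENSMUSG00000026043), a fibrillar collagen of mesenchyme, had 66.4, 66.1 and 50.3 FPKM, and was lowest in replicate 3. Fn1 (ENSMUSG00000026193), the matrix protein fibronectin, had 40.4, 38.7 and 48.9 FPKM. Pou5f1 (ENSMUSG00000024406), the pluripotency factor OCT4, had 1.88, 1.54 and 1.41 FPKM from 76, 74 and 57 counts. The order by mean was Tubb3 (111 ± 7.69), Col3a1 (60.9 ± 9.21), Sox2 (51.6 ± 1.82), Fn1 (42.7 ± 5.43), Nes (35.1 ± 7.20) and Pou5f1 (1.61 ± 0.244 FPKM, SD, n = 3 each). Library ranges overlapped between Col3a1 and Sox2 and between Fn1 and Nes, so those neighbours are not ordered beyond their spread. In bulk RNA, fewer cells of a type and less RNA per cell cannot be told apart.

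In the files, on GRCm38 coordinates, Tubb3 lies on chromosome 8 from 123411424 to 123422015 (+), Sox2 on chromosome 3 from 34650405 to 34652461 (+) and Nes on chromosome 3 from 87971078 to 87980451 (+). Col3a1 lies on chromosome 1 from 45311538 to 45349706 (+), Fn1 on chromosome 1 from 71585520 to 71653200 (-) and Pou5f1 on chromosome 17 from 35506018 to 35510772 (+).

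Of 54532 genes in the table, 12636 were detected, and 26971 had no count in any of the 3 libraries. Detected genes included 11243 of 22046 protein-coding genes, or 50.998%, and the median of a detected gene was 8.56 FPKM. Few genes were very abundant: 354 reached 100 FPKM in each library and 9 reached 1000 FPKM. The 10 highest genes held 7.17 ± 0.311% of the summed FPKM and the 100 highest held 22.2 ± 0.625% (SD, n = 3).

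The top of the list was made of energy metabolism and translation. Among the 20 highest genes, 4 were mitochondrially encoded, 9 coded for ribosomal proteins and 2 were annotated pseudogenes. mt-Co1, a subunit of cytochrome c oxidase, was highest with 5611, 6279 and 5571 FPKM in replicates 1, 2 and 3. Eef1a1, the elongation factor that carries tRNA to the ribosome, followed with 3968, 4145 and 3512 FPKM. These 2 genes stood clear of mt-Cytb, which had 1949 ± 75.8 FPKM (SD, n = 3). The chaperone Hsp90ab1 had 1075 ± 5.15 FPKM and the elongation factor Eef2 had 1222 ± 82.9 FPKM.

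Outside mitochondrially encoded and ribosomal protein genes the abundant genes included cytoskeleton, chromatin and secreted products. The cytoplasmic actin Actg1 had 781, 751 and 892 FPKM, and the tubulin Tubb5 had 682, 660.3 and 612 FPKM in replicates 1, 2 and 3. Ptma, the acidic nuclear protein prothymosin alpha, had 821 ± 20.8 FPKM, and the cytokine Mif had 739.8 ± 22.1 FPKM (SD, n = 3 each). Ecm1, a secreted glycoprotein of the extracellular matrix, ranked 23 among all genes. It had 771, 766 and 540.1 FPKM and was lowest in replicate 3. Cyp26b1, an enzyme that breaks down retinoic acid, ranked 38, above Tuba1a, a tubulin of developing neurons, at rank 39.

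**Figure D1:**
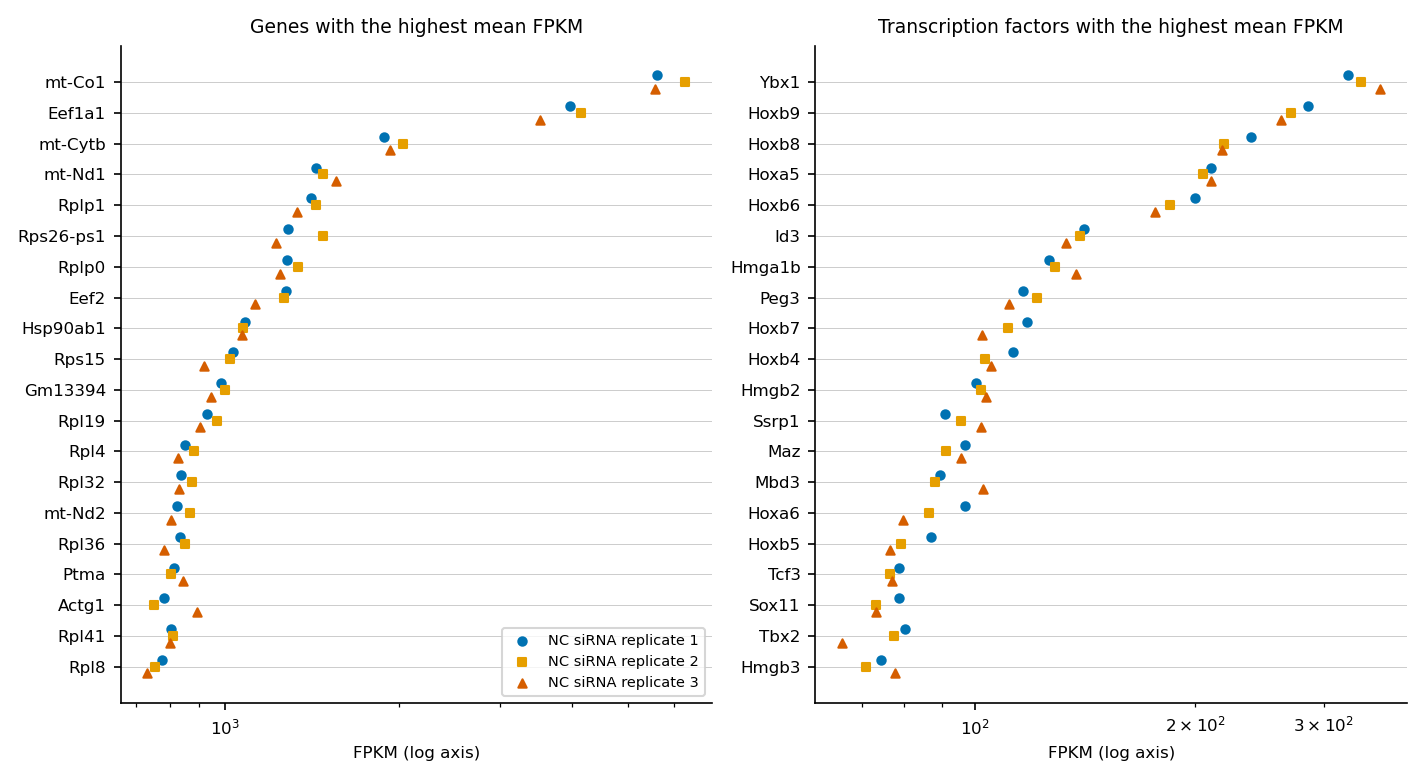
FPKM (log axis) of the 20 genes and of the 20 transcription factors with the highest mean, with 1 symbol for each of the 3 NC siRNA libraries. mt-Co1 and Eef1a1 lie at 3512 FPKM or more in each library, and 8 of the 20 highest transcription factors are Hox genes.

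Transcription factors, as the table assigns them to families, numbered 1469, of which 908 (61.8%) were detected with a median of 6.51 FPKM. Together they held 4.40 ± 0.0696% of the summed FPKM (SD, n = 3), and 11 reached 100 FPKM in each library. Ybx1, a cold shock protein that binds RNA and DNA, was highest with 324, 337 and 358 FPKM in replicates 1, 2 and 3. Hox genes took 8 of the 20 highest places and 13.1% of the summed FPKM of all transcription factors.

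The others among the 20 highest were mostly chromatin-binding or broadly expressed factors. Id3, an inhibitor of basic helix-loop-helix (bHLH) factors, had 138 ± 4.11 FPKM, and Tcf3, which codes for the E proteins that Id proteins bind, had 77.3 ± 1.161 FPKM (SD, n = 3 each). Peg3, an imprinted zinc finger gene, had 116 ± 5.28 FPKM. Hmgb2, Hmgb3 and Ssrp1, which code for proteins with an HMG box, had 102 ± 1.71, 74.2 ± 3.28 and 96.1 ± 5.49 FPKM. Mbd3, a subunit of the NuRD chromatin complex, had 93.4 ± 8.004 FPKM, and the zinc finger factor Maz had 94.5 ± 2.89 FPKM. Sox11, a factor of immature neurons, had 78.7, 73.2 and 73.1 FPKM, and Tbx2, a T-box repressor, had 80.2, 77.5 and 65.7 FPKM in replicates 1, 2 and 3. Hmga1b, a DNA-bending protein, was listed at 131 ± 5.95 FPKM, but 88.8% of its 51-base stretches also occur in other annotated genes, so its level is uncertain.

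Families differed in how many of their members were detected. All 10 E2F, all 9 MBD and all 8 MH1 (SMAD) members were detected, with Tfdp1 at 43.6 ± 4.69 FPKM and Smad4 at 51.5 ± 1.95 FPKM as the highest E2F and MH1 members (SD, n = 3 each). The C2H2 zinc fingers were the largest family with 399 of 576 detected. Against 61.8% over all transcription factors and 50.998% over all protein-coding genes, 34.9% of the homeobox family (81 of 232), 48 of 100 bHLH members, 45.5% of the forkhead family (20 of 44) and 23.5% of the T-box family (4 of 17) were detected. The bHLH and forkhead shares lay near that of all protein-coding genes. Pou3f1, a POU factor of early neural cells, was the highest of its family with 65.2, 57.5 and 55.1 FPKM in replicates 1, 2 and 3. Foxk2 led the forkhead family with 46.1 ± 0.979 FPKM, and Atf4, the effector of the integrated stress response, led the bZIP family with 63.0, 64.2 and 89.1 FPKM. Atf4 was highest in replicate 3.

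Every Hox gene of groups 1 to 9 was detected, and beyond group 9 the detected block ended in all 4 clusters, with Hoxb13 as the only gene past it. Of 39 Hox genes, 28 were detected: 8 of 8 in groups 1 to 3, 19 of 19 in groups 4 to 9, and 1 of 12 in groups 10 to 13. Groups 4 to 9 held 91.1% of the summed Hox FPKM, groups 1 to 3 held 7.83%, and groups 10 to 13 held 1.06%. By cluster, Hoxb held 64.7%, Hoxa 25.5%, Hoxc 7.94% and Hoxd 1.88%. The sum over all Hox genes was 1720.4, 1615 and 1583 FPKM in replicates 1, 2 and 3, or 1639.6 ± 71.8 FPKM (SD, n = 3).

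Hoxb9 (ENSMUSG00000020875, chromosome 11 from 96271457 to 96276595, +) was the highest Hox gene with 286, 270.3 and 262 FPKM in replicates 1, 2 and 3. Hoxb8 had 239, 219 and 218 FPKM and Hoxa5 had 211, 205 and 210.03 FPKM, and their ranges did not overlap. Within the Hoxb cluster the mean level was higher toward the posterior end of the expressed block, with 2.13 FPKM for Hoxb1, 17.5 for Hoxb2, 43.1 for Hoxb3, 107 for Hoxb4, 80.9 for Hoxb5, 187 for Hoxb6, 110.2 for Hoxb7, 225 for Hoxb8 and 273 for Hoxb9. The order was not strict, since Hoxb5 lay below Hoxb4 and Hoxb7 below Hoxb6. The Hoxa cluster had a different profile, with its peak at Hoxa5 (209 ± 2.89 FPKM), 13.02 ± 0.802 FPKM at Hoxa7 and 1.59 ± 0.320 FPKM at Hoxa9 (SD, n = 3 each). Group 9 genes therefore spanned levels from Hoxa9 over Hoxd9 (5.84 FPKM) and Hoxc9 (7.97 FPKM) to Hoxb9.

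Hoxb13 was the exception in the posterior groups with 17.05, 18.5 and 12.5 FPKM in replicates 1, 2 and 3, from 675, 872 and 497 counts. The other 11 genes of groups 10 to 13 lay between 0 and 0.324 FPKM, and Hoxc12 and Hoxd12 had no count. Several Hox genes overlap transcripts that the table counts separately. Hoxb5os, an antisense RNA that overlaps Hoxb5 and Hoxb6, was the highest gene of the lincRNA and antisense classes with 165, 138 and 131 FPKM, and because the strand setting of the counting is not given, reads of this locus cannot be assigned with certainty. Hotairm1, a long noncoding RNA at the anterior end of the Hoxa cluster, had 50.1, 43.3 and 37.4 FPKM. Cofactors of Hox proteins were also present, with Meis2 at 27.6 ± 1.74 FPKM and Meis1 at 23.1 ± 0.931 FPKM (SD, n = 3 each).

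**Figure D2:**
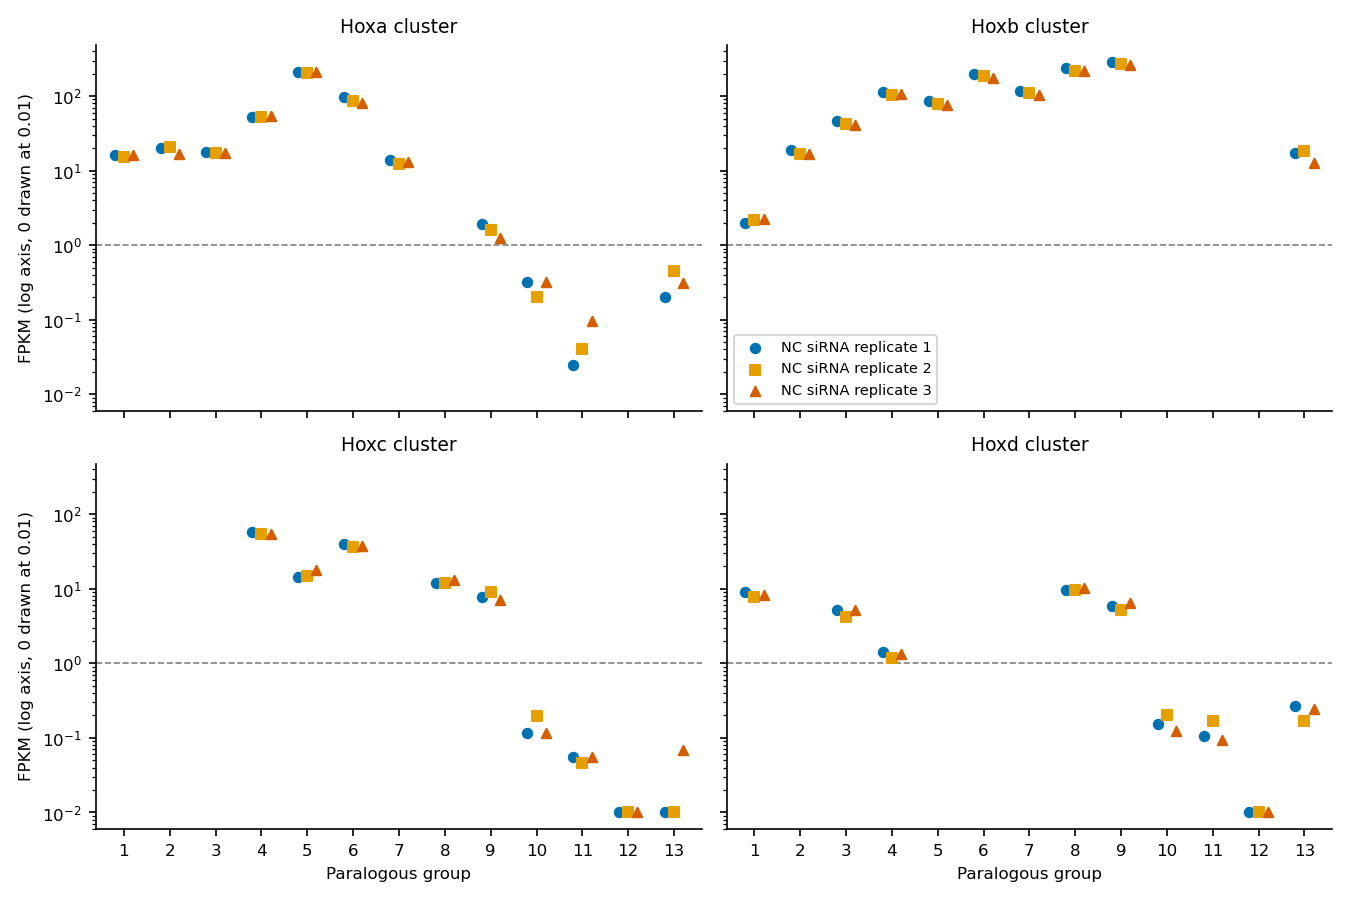
FPKM (log axis, 0 drawn at 0.01) of 39 Hox genes by paralogous group, 1 panel per cluster and 1 symbol per NC siRNA library. The dashed line marks 1 FPKM. Groups 1 to 9 lie above it in every cluster that has them, and Hoxb13 is the only gene of groups 10 to 13 above it.

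Genes that make, bind, sense and break down retinoic acid were abundant: 21 of 26 listed genes were detected, with a median of 20.1 FPKM, against 50.998% and a median of 1.37 FPKM over all protein-coding genes. Catabolism was highest. Cyp26b1 (ENSMUSG00000063415, chromosome 6 from 84571414 to 84593908, -) had 597, 539 and 500.4 FPKM in replicates 1, 2 and 3. Its paralog Cyp26a1 had 31.5, 30.1 and 27.7 FPKM, and Cyp26c1 had 0.493 ± 0.0589 FPKM (SD, n = 3). The 3 enzymes thus differed by far more than their spread. Dhrs3, which reduces retinaldehyde back to retinol, had 200.5, 196 and 175 FPKM.

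Among binding and uptake proteins, Crabp2, which carries retinoic acid to the nucleus, had 80.8 ± 6.40 FPKM, and Stra6, the retinol uptake receptor, had 44.7 ± 4.003 FPKM (SD, n = 3 each). Among the nuclear receptors, Rara had 57.2, 52.8 and 51.4 FPKM, Rarb had 24.0, 23.6 and 24.8 FPKM, and Rarg had 5.69, 5.31 and 4.10 FPKM in replicates 1, 2 and 3. The 3 ranges did not overlap. Rxrb had 18.97 ± 0.758 and Rxra 12.9 ± 0.662 FPKM, whereas Rxrg had 0.239 ± 0.0678 FPKM. Among the enzymes of synthesis, Aldh1a2 had 21.2 ± 1.75 FPKM, and Aldh1a1 and Aldh1a3 had 0.167 ± 0.108 and 0.257 ± 0.00562 FPKM. Nr2f1, an orphan receptor of neural cells, had 49.8 ± 3.26 FPKM.

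The promoters of 2 of these genes are shown because they hold the repeat to which RAR and RXR are known to bind. The search looked on both strands for 2 receptor sites in the same direction with 5 bases between them, in the RefSeq promoters of GRCm38.p6 (250 bases before to 50 after the start, 300 bases in all). Each site had to read AGGTCA, the canonical form, or else AGTTCA, or otherwise GGTTCA, or lastly GGGTCA. The repeat was found in 31 of 27025 genes, or 0.115%. Of 4055 matched genes at 10 FPKM or more in each library, Cyp26a1 and Rarb had it. They were also the only carriers among 21 genes of the retinoic acid list with a promoter, and none of 22 Hox genes with a promoter had it. Capitals mark the repeat. It lies 32 to 16 bases before the start in Cyp26a1 (chr19:37697558-37697857, + strand, repeat on the opposite strand) and 53 to 37 bases before the start in Rarb (chr14:16575427-16575726, - strand).
Cyp26a1: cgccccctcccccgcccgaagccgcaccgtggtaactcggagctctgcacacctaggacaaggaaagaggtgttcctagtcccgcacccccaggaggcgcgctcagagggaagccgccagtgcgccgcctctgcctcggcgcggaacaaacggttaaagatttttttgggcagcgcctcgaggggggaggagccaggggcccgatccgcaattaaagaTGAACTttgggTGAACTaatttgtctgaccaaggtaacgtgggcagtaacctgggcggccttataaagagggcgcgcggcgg
Rarb: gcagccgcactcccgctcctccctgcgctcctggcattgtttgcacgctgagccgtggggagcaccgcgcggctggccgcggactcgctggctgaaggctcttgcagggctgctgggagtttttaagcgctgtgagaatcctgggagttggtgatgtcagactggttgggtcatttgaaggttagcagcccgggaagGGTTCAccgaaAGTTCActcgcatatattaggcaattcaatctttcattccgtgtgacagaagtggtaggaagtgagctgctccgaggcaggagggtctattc
A match is a description of these letters and not a measurement of binding. Cyp26b1 and Dhrs3, the highest genes of the list, had no such repeat in this window.

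Across level classes of protein-coding genes, the only biotype taken here, promoters differed in composition. The median ratio of observed to expected CpG was 0.147 for genes with no count, 0.342 for genes under 1 FPKM, 0.732 from 1 to 10, 0.810 from 10 to 100 and 0.825 at 100 FPKM or more. The letters TATAAA were sought on the gene's strand from 40 to 20 bases before the start. They occurred in 6.50%, 3.03%, 0.909%, 0.657% and 2.53% of the promoters of these classes. Over all 20119 promoters of the 16496 matched protein-coding genes the share was 2.37%. Of 316 promoters of genes at 100 FPKM or more, 8 had it, among them those of Ecm1 and of Vim, the intermediate filament vimentin. The Ecm1 promoter is shown as the highest of them (chr3:95739520-95739819, - strand), with the match in capitals 27 to 22 bases before the start.
Ecm1: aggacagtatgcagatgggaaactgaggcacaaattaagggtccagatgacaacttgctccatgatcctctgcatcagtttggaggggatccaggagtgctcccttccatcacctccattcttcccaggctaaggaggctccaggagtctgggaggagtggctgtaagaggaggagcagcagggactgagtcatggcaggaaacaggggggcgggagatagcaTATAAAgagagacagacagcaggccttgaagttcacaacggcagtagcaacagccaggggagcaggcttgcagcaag

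The lineage lists placed most lineage RNA in the neural and the mesenchymal groups. Of 20 neural progenitor genes, 18 were detected (median 7.89 FPKM), and of 33 neuron genes, 30 were detected (median 5.92 FPKM). Of 25 mesenchyme and matrix genes, 23 were detected (median 8.72 FPKM), and all 13 basement membrane genes were detected (median 21.9 FPKM). Pluripotency (5 of 20), endoderm (5 of 20), early mesoderm (1 of 8), endothelium (1 of 12), trophoblast (1 of 8) and germ line (1 of 9) had few members detected, and blood (0 of 11) and microglia (0 of 6) had none. Over all protein-coding genes the share was 50.998%. The lists were written with earlier results of these data known, so these counts describe the cells and do not support a label.

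The highest member of the neural progenitor list was Vim with 157, 151 and 174 FPKM in replicates 1, 2 and 3. In bulk RNA that level cannot be assigned to neural progenitors rather than to other cells of the sample. After Sox2 came the adhesion molecule Cdh2 (42.8 ± 2.16 FPKM) and the RNA-binding protein Msi1 (28.3 ± 1.63 FPKM, SD, n = 3 each). Sox1, an early neural factor, had 17.9, 14.9 and 14.4 FPKM. Pax6, a factor of the forebrain, eye and spinal cord, was near the limit of detection with 1.12, 1.22 and 1.29 FPKM, and the Notch target Hes5 stayed under it with 0.566 ± 0.227 FPKM. Among regional genes, Lhx2 (12.1 ± 1.65 FPKM) and Otx2 (5.42 ± 0.713 FPKM), which mark the anterior brain, were measured in the same libraries as Hoxb9. Of 14 forebrain and midbrain genes 5 were detected, and of 8 hindbrain and posterior genes other than Hox 2. Of 14 dorsal neural tube genes 6 were detected, and of 13 ventral genes 3, with Shh, the ventral signal, at 0.145 ± 0.0799 FPKM. Each of these shares lay below the 50.998% of all protein-coding genes.

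Neuronal RNA included genes of axon growth and of neuron specification. After Tubb3 the highest members were Dpysl3 (57.7 ± 4.15 FPKM), which acts in axon growth, the microtubule regulator Stmn3 (53.0 ± 1.20 FPKM), and Uchl1, a neuronal ubiquitin hydrolase (38.3 ± 0.561 FPKM, SD, n = 3 each). The proneural factor Neurog1 had 5.65, 4.21 and 7.89 FPKM in replicates 1, 2 and 3, and was highest in replicate 3. Genes of transmitter identity were scarce, with 3 of 17 detected, namely Ddc (12.9 ± 0.234 FPKM), Slc17a8 (4.27 ± 0.815 FPKM) and Slc32a1 (2.32 ± 0.152 FPKM). Among glial genes 9 of 18 were detected, led by Glul, Slc1a3 and Sox9 (47.1 ± 3.02, 22.1 ± 0.910 and 18.4 ± 0.346 FPKM), which radial glia and progenitors also express. That share of 50% was near the 50.998% of all protein-coding genes. Mbp and Mog were also detected, at 10.4 ± 0.735 and 1.72 ± 0.184 FPKM. The astrocyte filament Gfap had 0.368 ± 0.0101 FPKM and Aqp4 had no count.

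Mesenchymal RNA was led by Sparc, a matrix-binding glycoprotein, with 250.4, 264 and 257 FPKM in replicates 1, 2 and 3. The type I collagen genes were lower in replicate 3, with 38.8, 39.5 and 20.6 FPKM for Col1a1 and 42.9, 43.0 and 28.1 FPKM for Col1a2. Basement membrane genes were led by Nid2 (109.7 ± 5.98 FPKM), which codes for nidogen 2, and Col18a1 (90.6 ± 5.21 FPKM, SD, n = 3 each). Lama4 was the lowest at 1.85 ± 0.299 FPKM.

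Of 9 paraxial mesoderm genes 6 were detected (median 1.69 FPKM), and of 15 lateral mesoderm genes 9 were detected (median 1.35 FPKM). Those shares of 66.7% and 60% lay near the 61.8% of all transcription factors. The median over all protein-coding genes was 1.37 FPKM, and 50.998% of them were detected. Meox1, a factor of the somites, had 25.2, 25.7 and 17.9 FPKM, and Wt1, a factor of kidney and coelomic lining, had 29.1, 30.8 and 28.6 FPKM. The primitive streak gene T had 1 count in all 3 libraries, and Msgn1, Meox2 and Hand1 had none. Among neural crest genes 11 of 17 were detected, a share of 64.7% that was also near 61.8%. They were led by Twist1 (37.9 ± 2.08 FPKM) and Msx1 (35.04 ± 3.42 FPKM, SD, n = 3 each), while Sox10, the factor that marks migrating crest, had 0, 1 and 2 counts. Of 17 muscle genes 4 were detected, the cytoskeletal genes Tpm1, Acta2, Myl9 and Tpm2. Myf5 had no count and Myod1 had 0.0167 FPKM.

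Pluripotency RNA was low throughout. Klf2 was the highest member at 2.82 ± 1.05 FPKM (SD, n = 3), Nanog had 0.799 ± 0.299 FPKM, and Zfp42, Dppa5a and Fgf4 had no count. In endoderm, Gata6 (12.4 ± 0.928 FPKM) and Dab2 (8.08 ± 0.254 FPKM) were highest, and the visceral endoderm products Afp and Apob had no count. Gata6 is also a factor of lateral mesoderm and is counted in both lists. Of 15 epithelial genes 7 were detected, a share of 46.7% that was near the 50.998% of all protein-coding genes. Krt18 had 14.6, 18.8 and 30.0 FPKM in replicates 1, 2 and 3. The adhesion molecule Cdh1, which did not count as detected, had 0.426, 0.5005 and 1.66 FPKM. Both were highest in replicate 3. Of the 7 detected genes, 4 were highest there, 2 in replicate 2 and 1 in replicate 1. Of the remaining groups, Kdr (3.88 ± 0.355 FPKM), a receptor of endothelial progenitors, was the only endothelial gene detected, and Ptprc, which all white blood cells share, had no count.

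**Figure D3:**
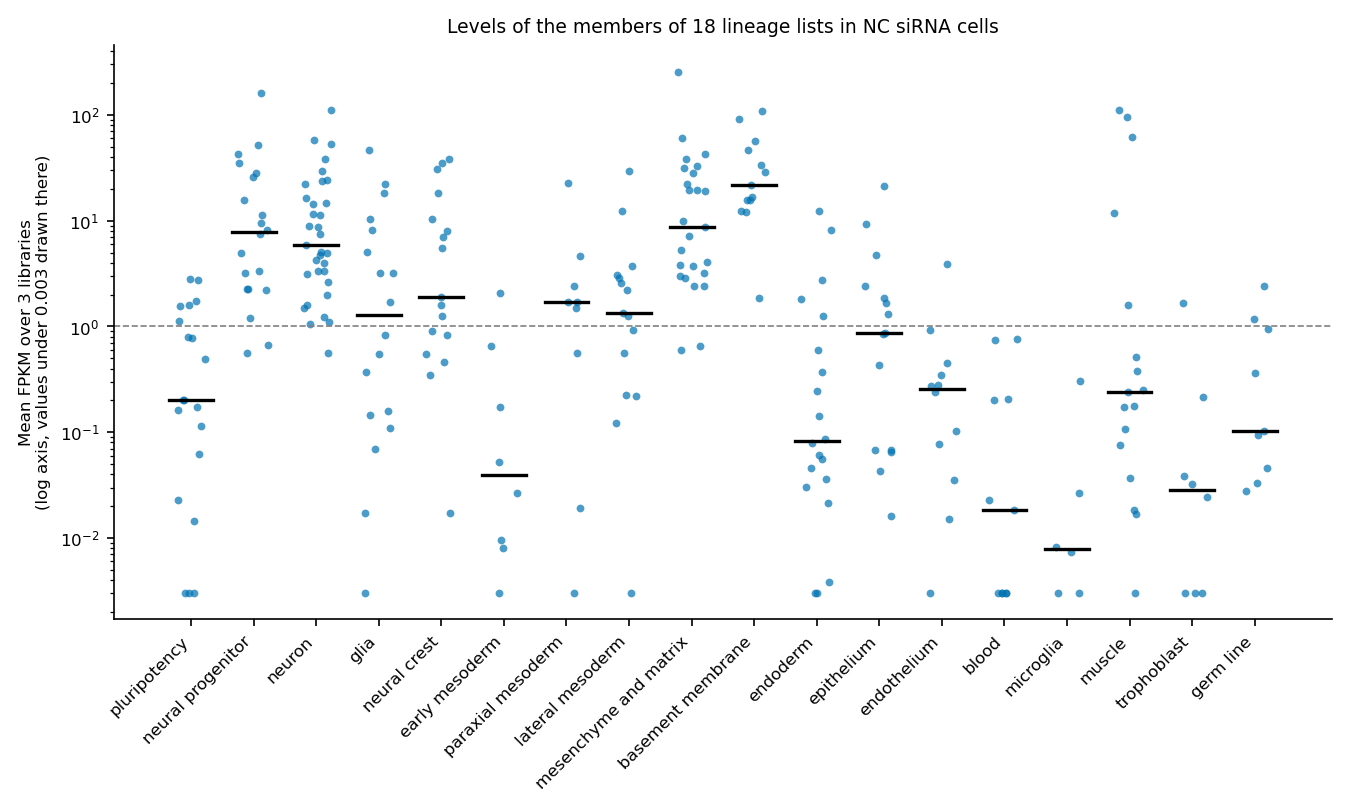
Mean FPKM over 3 libraries (log axis, values under 0.003 drawn there) of each member of 18 lineage lists, 1 point per gene, with the list median as a bar and 1 FPKM as a dashed line. The medians of the neural progenitor, neuron, mesenchyme and basement membrane lists lie between 5.92 and 21.9 FPKM, and those of blood and microglia near 0.

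The cells expressed the machinery of division. All 20 cell cycle genes were detected with a median of 44.5 FPKM, against 50.998% and a median of 1.37 FPKM over all protein-coding genes. Top2a, the topoisomerase of dividing cells, led the list with 104, 112 and 96.2 FPKM in replicates 1, 2 and 3. Mki67, the proliferation antigen, had 41.5, 39.6 and 30.5 FPKM and was lowest in replicate 3. The list did not share that order: of its 20 genes, 11 were highest in replicate 3 and 7 were lowest there. Over all detected genes, 39.4% were highest in replicate 3. Ccnd2 had 29.1 ± 2.12 FPKM and Ccnd1 4.30 ± 1.02 FPKM (SD, n = 3 each), 2 D cyclins whose ranges did not overlap. The inhibitor Cdkn1b had 47.6 ± 1.25 FPKM and Cdkn1c 1.21 ± 0.275 FPKM.

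All 15 glycolysis genes were detected (median 91.7 FPKM), with Pkm, the last enzyme of the pathway, at 473 ± 18.5 FPKM and Pgk1 at 305 ± 11.9 FPKM (SD, n = 3 each). Imprinted genes were abundant, with 18 of 20 detected and a median of 26.9 FPKM, led by Mest (254 ± 26.9 FPKM) and Peg10 (243 ± 26.7 FPKM). Interferon response genes were mostly under the threshold: 2 of 12 were detected, Bst2 (5.33 ± 0.575 FPKM) and Ddx58 (1.46 ± 0.107 FPKM), and Mx1 had 1 count in all. For scale, 50.998% of all protein-coding genes were detected, and their median was 1.37 FPKM. The Y-linked genes Eif2s3y and Ddx3y had 17.8 ± 1.34 and 15.0 ± 2.58 FPKM and Xist had 0.0121 ± 0.00770 FPKM, which is the pattern of male cells. Dpf2, which codes for BAF45D, had 23.9, 23.6 and 24.1 FPKM in replicates 1, 2 and 3.

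By biotype, protein-coding genes held 97.4 ± 0.0492% of the counts and 89.4 ± 0.237% of the summed FPKM (SD, n = 3 each). Processed pseudogenes, which are copies of spliced mRNA, held 1.5003 ± 0.0442% of the counts but 8.03 ± 0.240% of the summed FPKM, with 632 of 9773 detected. The lincRNA class held 0.408 ± 0.00633% of the counts with 180 of 5559 detected, and the antisense class held 0.180 ± 0.00460% with 143 of 2826 detected. Mitochondrially encoded genes held 1.59 ± 0.0719% of the counts, and ribosomal protein genes held 4.15 ± 0.198%. Both groups have near-identical copies elsewhere, and how reads that match several places were counted is not stated, so both shares are uncertain. The nuclear RNA Malat1 was the fifth highest gene of the lincRNA and antisense classes, with 59.2, 51.7 and 61.5 FPKM. Replication-dependent histone genes, whose mRNA lacks a poly(A) tail, had 15 of 67 detected, and mitochondrial rRNA held 0.0217 ± 0.00126% of the counts. The sources used here do not say how the RNA was enriched before library construction.

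Levels of genes with near-identical copies need care, and Gapdh shows it. This glycolysis enzyme, often used as a reference gene, was listed at 5.18, 7.51 and 6.52 FPKM in replicates 1, 2 and 3, the lowest of the 15 glycolysis genes. Gm13394, an annotated processed pseudogene, was listed at 982, 999 and 944 FPKM and ranked 11. Of its 950 stretches of 51 bases, 899 (94.6%) also occur in transcripts of Gapdh, and the counts of the pair summed to 18002, 22038 and 17435 in replicates 1, 2 and 3, with a coefficient of variation (CV, SD over mean) of 2.98% after scaling to depth. Rps26-ps1, ranked 6 with 1328 ± 131 FPKM, shared less with its parent: 59.4% of its stretches occur in Rps26, which itself had 3969, 4948 and 3785 counts. The CV of that pair summed was 8.41%, and that of Rps26-ps1 by its own counts was 9.86%.

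Mitochondrial genes also differed in how much sequence they shared. The 7 highest of 13 protein genes, from mt-Co1 at 5820.3 ± 398 FPKM to mt-Nd6 at 362 ± 3.23 FPKM (SD, n = 3 each), shared at most 62.2% of their 51-base stretches with other annotated genes. The next 5, from mt-Co2 at 32.9 ± 2.28 FPKM to mt-Nd3 at 1.81 ± 0.661 FPKM, shared at least 98.0%. The last, mt-Atp8, shared none and had 0.731 ± 0.691 FPKM. The sources used here do not say how reads that match several places were counted, so levels of such genes are those of the table and not of the locus.

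Over the 13247 genes with a mean of 1 FPKM or more, the median CV between libraries was 6.81%, where counting alone would give a median of 3.85%. The median CV was 11.2% from 1 to 5 FPKM, 6.58% from 5 to 10, 5.03% from 10 to 100 and 5.13% at 100 FPKM or more. The common biological coefficient of variation, estimated by edgeR over 15243 genes, was 0.0806. It was 0.0456 without replicate 3, 0.0933 without replicate 1 and 0.0953 without replicate 2. Without replicate 3 the median CV was 4.17%. Leaving out replicate 3 therefore moved both measures of spread by more than 1.5 times. A median CV over 2 libraries is not directly comparable with one over 3, and it was also lower without replicate 1 (6.37%) or replicate 2 (6.47%). Log2(FPKM + 1) of the libraries correlated across genes with r from 0.992 to 0.993, a description across genes that share libraries.

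The steadiest genes at 5 FPKM or more were Ccdc181, Arih1, Setdb1, Wdr89 and Arl2bp, with CVs from 0.0399% to 0.148%, below what counting noise gives for a typical gene of their level. Arih1, a ubiquitin ligase, had 3249, 3881 and 3249 counts in replicates 1, 2 and 3, and Setdb1, a histone H3 lysine methyltransferase, had 2607, 3105 and 2611 counts. They are the lower tail of the distribution over all genes and not a proof of constancy. The 10 least steady genes were mostly short RNAs and pseudogenes. Sumo2, a ubiquitin-like modifier, had 108, 26.9 and 20.5 FPKM, and its copy Gm10241 had 37.8, 278 and 274 FPKM. All 236 stretches of Gm10241 occur in Sumo2, and the CV of Sumo2 was 94.5% by its own counts scaled to depth, 31.5% after adding those of Gm10241, and 15.7% after summing all genes that share sequence with it.

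**Figure D4:**
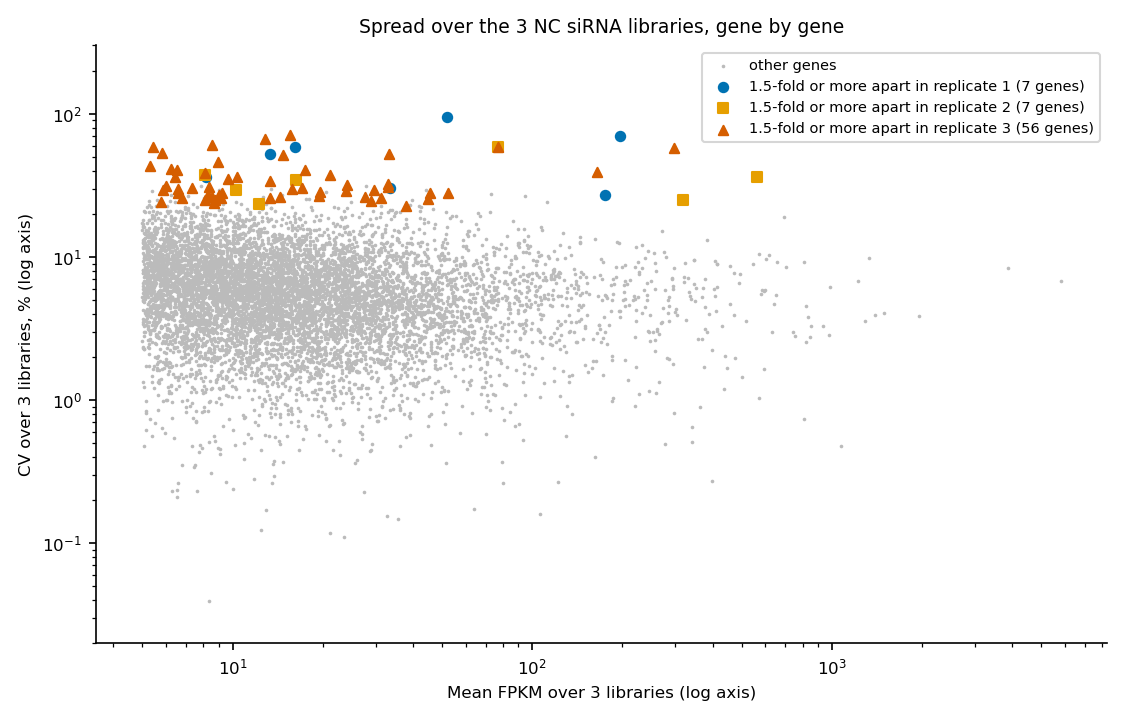
CV over 3 libraries (in %, log axis) against mean FPKM (log axis) for 8354 genes with a mean of at least 5 FPKM and 100 counts, with genes at least 1.5-fold from both other libraries drawn by library. The symbols of replicate 3 (56 genes) outnumber those of replicates 1 and 2 (7 genes each). Gm9824 is drawn for replicates 2 and 3.

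Genes at least 1.5-fold from both other libraries were counted among 8354 genes with a mean of at least 5 FPKM and 100 counts. Replicate 1 had 7 such genes, replicate 2 had 7 and replicate 3 had 56, which is 0.670% of the genes considered. In replicate 3, 37 were higher and 19 lower. Of the 56, 48 shared under 25% of their 51-base stretches with other genes, against 2 of 7 in replicate 1 and 0 of 7 in replicate 2. Shared sequence was not computed over all 8354 genes, so these counts have no background share beside them and are description only. The genes named from these 56, apart from Tnfrsf12a, Krt18, Chac1, Col1a1 and Col1a2, were chosen after their values were seen, as were list members named above that are not among the 5 highest of their list.

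Tnfrsf12a, the receptor of the cytokine TWEAK, had 8.02, 7.79 and 22.6 FPKM in replicates 1, 2 and 3. Plau, the urokinase plasminogen activator, had 5.65, 5.43 and 14.4 FPKM, and Hbegf, a growth factor of the EGF family, had 3.57, 3.66 and 9.11 FPKM. Thbs1, Tnc, Anxa1, F3, Cyr61 and Nid1 were also at least 1.5-fold higher there, as were Insig1, Msmo1 and Lss, 3 genes of sterol synthesis and its control. The imprinted RNA H19 had 22.2, 24.1 and 53.4 FPKM.

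Genes lower in replicate 3 included Col1a1 and Col1a2, the matrix proteins Sparcl1 (21.9, 21.3 and 9.33 FPKM in replicates 1, 2 and 3), Emilin1 (33.4, 32.6 and 20.6 FPKM) and Vcan (9.82, 10.1 and 6.21 FPKM), and Txnip, a regulator of glucose uptake (33.3, 36.1 and 19.7 FPKM). None of the 56 genes apart in replicate 3 was a transcription factor by the table's families, and the same held for the genes apart in replicates 1 and 2. For scale, 518 of the 8183 genes at 5 FPKM or more in each library were transcription factors. The part of culture, library or counting in these differences was not tested.

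The library score of a list was the mean over its detected members of log2(FPKM + 1) minus the gene's mean over 3 libraries. It was 0.20 in replicate 3 and -0.10 in both other libraries for muscle (4 genes), and 0.15 in replicate 3, -0.12 in replicate 1 and -0.03 in replicate 2 for epithelium (7 genes). For mesenchyme and matrix (23 genes) it was -0.13 in replicate 3, 0.06 in replicate 1 and 0.07 in replicate 2. For dorsal neural tube genes (6 genes) it was 0.17 in replicate 3, -0.01 in replicate 1 and -0.17 in replicate 2. For mitochondrially encoded genes (12 genes) it was 0.10 in replicate 2 and -0.05 in both other libraries. Hox (28 genes) spanned -0.03 to 0.05, cell cycle (20 genes) -0.02 to 0.01 and retinoic acid genes (21 genes) -0.05 to 0.04. Over all 12636 detected genes the score was near 0 in each library.

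**Figure D5:**
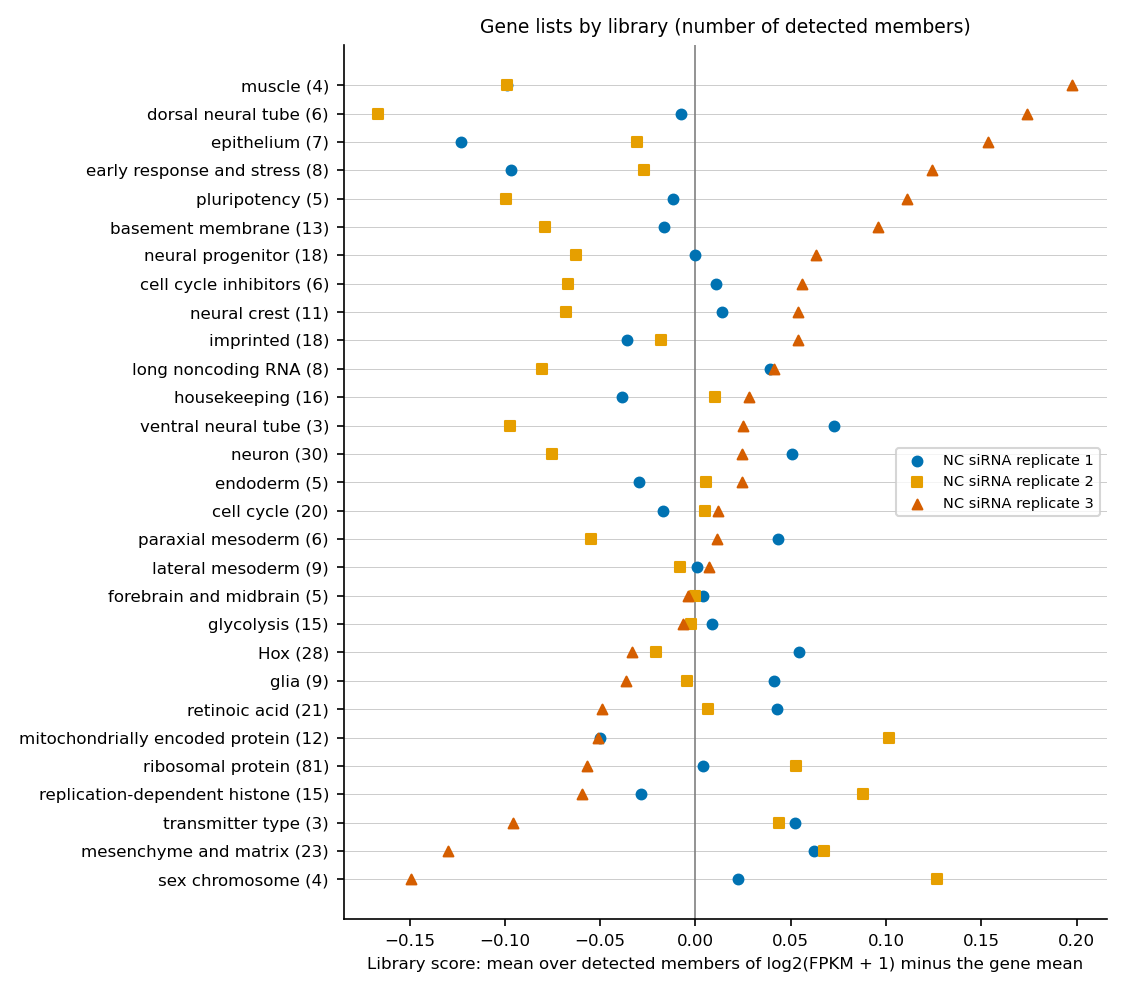
Library score (log2 units) of the lists with at least 3 detected members, 1 symbol per NC siRNA library, ordered by replicate 3, with the number of detected members in brackets. Replicate 3 is at 0.20 for muscle and at -0.13 for mesenchyme and matrix, while the glycolysis and cell cycle lists stay close to 0.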

How the data were processed

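Total RNA of P19 cells was extracted with TRIzol and sequenced from NEBNext Ultra libraries, per the labels' protocols. The deposited table, by the authors, gives read counts per gene and FPKM, the count divided by the listed gene length and the library depth. The submitters' processing notes name DESeq2 1.16.1 and the build mm9. However, 98.3% of 54409 gene identifiers have the coordinates of GENCODE M21 (GRCm38), so coordinates are given as GRCm38. The aligner, the counter, its use of strand and its treatment of reads that match several places are not stated there, so antisense genes and near-identical copies are uncertain.

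The 3 NC siRNA libraries (17767104 to 21224822 counts) were taken from the table by their labels. Detection meant 1 FPKM or more in each library. Means, SD and CV were computed from the deposited FPKM with python 3.11.15, pandas 2.3.3 and numpy 2.4.6, and figures were drawn with matplotlib 3.10.9. The common biological coefficient of variation was estimated by edgeR 4.0.16 (R 4.3.3) on counts kept by filterByExpr and scaled by TMM, a step tested on simulated data. Genes apart in 1 library had a mean of at least 5 FPKM and 100 counts and lay at least 1.5-fold from both others. Shared sequence was counted as stretches of 51 bases of GENCODE M21 transcripts that occur in another gene. Promoters came from RefSeq and were matched by symbol, and their level classes held protein-coding genes alone.

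Genes were named by rule: the 6 markers, the 20 highest genes and the 10 highest outside mitochondrially encoded and ribosomal protein genes, the 20 highest transcription factors and the highest of each family with at least 5 detected members, the 5 highest members of each of 37 lists and members at 0 counts, the 5 highest long noncoding RNAs, and, at 5 FPKM or more, the 10 highest and 5 lowest CVs. Dpf2 and Gapdh were added as siRNA targets in the labels. The members and lists were chosen with earlier results of these data known. One group was described, so no test between groups was made. Alternatives were other detection levels, units, scalings and filters, and leaving out each library. Some genes that the rule names are not reported here.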

Additional observations from a re-analysis of the deposited data

How the results depend on the processing

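No paired analysis was possible because 1 group was described and no result came from a test. At 5 FPKM in place of 1 FPKM, 8183 genes and 518 transcription factors were detected, against 12636 and 908. Counted as a share of counts in place of FPKM, the 10 highest genes held 3.39% against 7.17% and the 100 highest 10.7% against 22.2%. Without mitochondrially encoded genes those shares of FPKM were 5.11% and 19.6%. As a share of FPKM in place of counts, protein-coding genes held 89.4% against 97.4% and mitochondrially encoded genes 4.41% against 1.59%, since the unit divides by length. The median CV of 6.81% was 5.47% at a mean of 5 FPKM or more, 19.9% with no filter beyond 1 count, and 4.17% to 6.47% with 1 library left out, lowest without replicate 3. The common biological coefficient of variation of 0.0806 lay between 0.0456 and 0.0953 with 1 library left out, again lowest without replicate 3. At 2-fold in place of 1.5-fold, an alternative added after seeing the data, 4 of 7 genes stood apart in replicate 1, 0 of 7 in replicate 2 and 10 of 56 in replicate 3. At a mean of 10 FPKM or more, also added then, 29 genes stood apart in replicate 3. The number of detected members moved by over 1.5 times in 22 of 37 lists at 5 FPKM, in 5 lists at 0.5 FPKM, and in at most 1 list with any 1 library left out. In TPM every level was 3.48 to 3.53 times the FPKM, so the order of levels within a library is the same. Leaving out 1 library moved 7 of 207 named genes at 1 FPKM or more by over 1.5 times, among them Sumo2 and Tnfrsf12a. Depth limits genes near 1 FPKM, where counting noise alone gives a median CV of 7.54% from 1 to 5 FPKM. Counting noise is a lower limit of error, and 3 libraries limit every SD.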

Other observations

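Early response and stress genes were unevenly present, with 8 of 11 detected and a median of 5.36 FPKM. That share was 72.7%, against 50.998% and a median of 1.37 FPKM over all protein-coding genes. Jun, a component of AP-1, had 38.4, 36.8 and 37.5 FPKM in replicates 1, 2 and 3, whereas its partner Fos had 1.75, 1.91 and 1.85 FPKM. Chac1, a glutathione-degrading enzyme, had 5.04, 4.82 and 8.16 FPKM, and was at least 1.5-fold higher in replicate 3 than in both others. Trib3, a pseudokinase, had 4.25, 5.19 and 6.63 FPKM, and Ddit3, the factor CHOP, had 13.8, 12.8 and 16.7 FPKM, and neither reached that fold. The inducible heat shock genes Hspa1a and Hspa1b stayed under 1 FPKM, at 0.0188 ± 0.0188 and 0.263 ± 0.0327 FPKM (SD, n = 3 each).

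Imprinted genes that neighbour each other were not equally expressed. At the Igf2 and H19 locus, Igf2 had 58.1, 59.7 and 49.5 FPKM and H19 had 22.2, 24.1 and 53.4 FPKM in replicates 1, 2 and 3, so the pair had opposite orders in replicate 3 and in the other libraries. At the Dlk1 and Meg3 locus, Dlk1 had 9.05 ± 1.18 FPKM, Meg3 23.04 ± 2.48 FPKM and Rian 20.2 ± 2.42 FPKM (SD, n = 3 each). Kcnq1ot1 was barely counted, at 0.000367 ± 0.000321 FPKM, with an SD close to its mean. Its neighbour Cdkn1c had 1.21 ± 0.275 FPKM. Among long noncoding RNAs of neural interest, Miat had 29.2 ± 3.47 FPKM and Mir124a-1hg, a host of the neuronal microRNA miR-124, had 3.77 ± 0.717 FPKM, whereas Rmst and Sox2ot had 0.632 ± 0.172 and 0.231 ± 0.0211 FPKM. Those not among the 5 highest of their list were named after their values were seen, and no explanation was tested.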
